A study of Homo sapiens with 12 samples.

Results

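The tricarboxylic acid (TCA) cycle enzymes were followed in RNA-seq libraries of MDA-MB-231, an established human cell line from a triple-negative breast cancer. The genes were chosen by name along the steps of the cycle, with earlier results of these data known. Aconitase and the further subunits were kept on a neighbouring list. The genes are 9 of the 60664 genes in the count table: CS, IDH1, IDH2, IDH3A, OGDH, SUCLG1, SDHA, FH and MDH2. Wildtype (WT) cells were kept in normoxia or held for 24 hr in a hypoxia chamber at 1% O2, and CCAR2 knockout (KO) cells were kept in normoxia, with 4 libraries in each of the 3 groups. CCAR2 encodes DBC1, a nuclear regulator of p53 and of deacetylases. The KO cells were made by lentiviral CRISPR, and whether they are 1 clone or a pool is not given in the sources used here. KO cells in hypoxia were not analysed here.

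The cycle runs in the mitochondrial matrix and oxidizes the acetyl group of acetyl-CoA to carbon dioxide, passing its electrons to the respiratory chain. It also gives out citrate, 2-oxoglutarate and oxaloacetate for the synthesis of lipids and amino acids. In low oxygen many cells are known to send less pyruvate into the cycle. Pyruvate dehydrogenase kinases (PDKs) switch off pyruvate dehydrogenase, and some of them are classical targets of the hypoxia-inducible factors (HIFs).

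The targeted gene and a hypoxia marker were examined first. CCAR2 had a mean of 149 CPM (counts scaled to a common library size) in WT normoxia, 148 CPM in WT hypoxia and 57.2 CPM in KO cells, and was lower in KO cells (log2 fold change -1.34, edgeR quasi-likelihood test, adjusted p = 2.1e-09). CA9, a textbook HIF target, had a mean of 0.0661 CPM in WT normoxia, 4.86 CPM in hypoxia and 0.111 CPM in KO cells. All 6 markers of basal, mesenchymal breast cancer cells were present, with summed levels of 7787 to 8177 CPM in WT normoxia, 6917 to 7501 CPM in hypoxia and 7329 to 7932 CPM in KO cells. The lowest of them, SNAI2, had means of 3.87, 4.73 and 5.99 CPM in WT normoxia, hypoxia and KO cells. Of 6 luminal markers, ESR1, PGR and CDH1 were under 1 CPM in every group. The others were detected, with means in the same order of 14.7, 12.6 and 17.3 CPM for EPCAM, 6.04, 5.06 and 7.02 CPM for GATA3, and 1.61, 1.07 and 2.56 CPM for ESRP1. The luminal list summed to 21.5 to 24.0 CPM in WT normoxia, 18.5 to 20.1 CPM in hypoxia and 26.2 to 29.2 CPM in KO cells. The part of these shifts in the results was not tested. The estimated counts of a library summed to 153904088 to 213743693 in WT normoxia, 76384973 to 195621872 in hypoxia and 68599412 to 152328450 in KO cells. Hypoxia replicates 1 and 2 and KO replicate 2 had the 3 smallest sums. Hypoxia replicate 2 was also the highest hypoxia library in CS, IDH1, IDH3A, SUCLG1, FH and MDH2. For the enzymes that it moves, the difference between hypoxia and normoxia is given with and without it. The methods speak of biological replicates, though of other numbers than the 4 libraries per group. Nothing in the labels says which libraries came from separate cultures, so p-values measure the spread between these libraries, which may be in part technical.

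Levels of different enzymes were compared per kilobase of merged exon. In WT normoxia the order was MDH2 (69.0 ± 2.28 CPM per kilobase, SD, n = 4), which makes oxaloacetate in the last step, FH (60.9 ± 3.88), which hydrates fumarate, CS (55.1 ± 1.22), which condenses oxaloacetate with acetyl-CoA, and OGDH (31.8 ± 0.589), the first component of the 2-oxoglutarate dehydrogenase complex. SDHA, the flavoprotein subunit of respiratory complex II, followed at 29.6 ± 1.29 CPM per kilobase and SUCLG1, the alpha subunit of succinyl-CoA ligase, at 14.3 ± 0.607. The isocitrate dehydrogenases came last, with IDH1 of the cytosol and peroxisomes at 10.7 ± 0.366 CPM per kilobase, IDH3A, the catalytic subunit of the NAD-dependent enzyme, at 7.77 ± 0.143, and IDH2, the NADP-dependent enzyme of the matrix, at 2.42 ± 0.245. The last 4 places were the same in every group, also by longest transcript, with IDH2 at the bottom even in hypoxia (4.68 ± 0.125 CPM per kilobase). The order of the other 5 depended on the length used: by longest transcript, CS (115 CPM per kilobase) and MDH2 (114) led in WT normoxia, with ranges that overlapped, and SDHA (82.6) came before FH (72.6) and OGDH (39.7). OGDH and SDHA in hypoxia (33.0 ± 1.58 and 33.3 ± 1.65 CPM per kilobase of merged exon) did not differ beyond their spread. By longest transcript they were far apart, at 41.1 ± 1.97 and 93.0 ± 4.61.

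**Figure D1:**
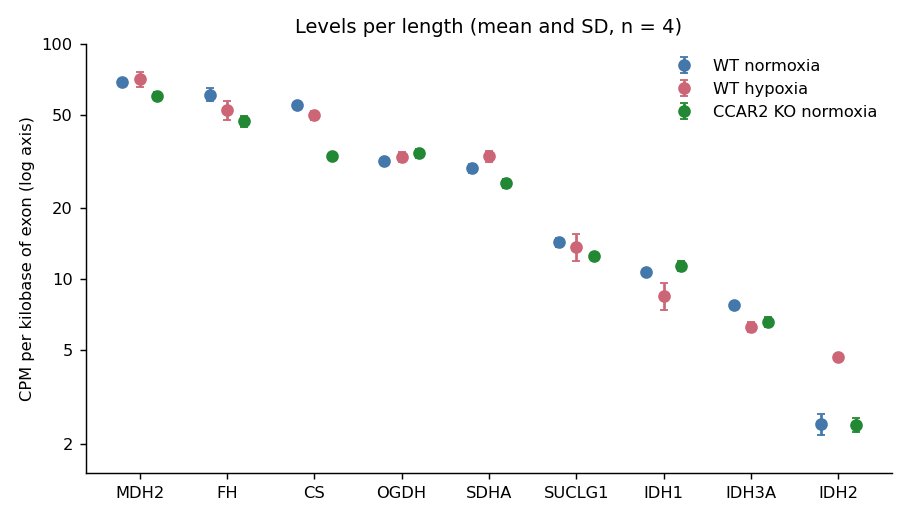
Mean level of each TCA cycle enzyme in CPM per kilobase of merged exon (log axis) in the 3 groups, with SD over 4 libraries. MDH2 leads in every group, at 60.3 to 70.8, and IDH2 is lowest in every group, at 2.41 to 4.68, with its hypoxia point apart from the others.

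IDH2 was the enzyme that rose most in hypoxia. IDH2 lies on GRCh38 at chr15:90083045-90102504 (minus strand) and makes NADPH and 2-oxoglutarate in the matrix. Its 4 WT normoxia libraries had 6.06, 6.80, 6.62 and 7.72 CPM and its 4 hypoxia libraries had 12.8, 13.0, 13.3 and 13.6 CPM. Every hypoxia library lay above every normoxia library. The log2 fold change was 0.98 with an SE of 0.09 (1.98-fold, adjusted p = 5.3e-05). In each of 11 alternative settings and with each of the 8 libraries left out, it lay between 0.87 and 1.06 with an adjusted p of 5.1e-04 or less.

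RefSeq's table for GRCh38.p14 gave promoter windows for 8 of the 9 enzymes, all but OGDH. The window for IDH2 starts inside the annotated gene, at the start of a shorter transcript. Its bases that lie before the annotated first exon of that shorter transcript, and so within an intron of the longer one, chr15:90100696-90100871 on the minus strand, are shown because IDH2 had the largest difference in hypoxia.
IDH2: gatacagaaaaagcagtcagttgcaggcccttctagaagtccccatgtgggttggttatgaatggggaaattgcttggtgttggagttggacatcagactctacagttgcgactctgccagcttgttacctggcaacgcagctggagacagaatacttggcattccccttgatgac
The 250 bases before each start were searched on both strands for the HIF core, spelled ACGTG in one form and GCGTG in the other. The E-box CACGTG, which contains the first of these forms, and the ETS core CCGGAAG were searched likewise, as were the NRF1 core and a box of letters GGGCGG known as the GC box. Last came the CCAAT box, whose name spells it out. None of these motifs is in the stretch shown, and the rest of the IDH2 window, nearer the start, has 1 GCGTG. That form is in 32.2% and ACGTG in 18.5% of all 35116 windows of the same length, so a match describes the window and marks no binding site. Among the other enzymes, GCGTG is found 3 times in a window of IDH1, 2 times each in IDH3A, SDHA and FH, and 1 time in SUCLG1. ACGTG is found 1 time, in another window of IDH1, and CS and MDH2 have neither form. The E-box (6.34% of windows) and the NRF1 core (1.03%) are in no window of the 8 enzymes.

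IDH1 and IDH3A, the other isocitrate dehydrogenase genes among the 9 enzymes, moved the opposite way in hypoxia. IDH3B and IDH3G, further subunits of the NAD-dependent enzyme on the neighbouring list, moved little. IDH3B had means of 117 and 112 CPM in WT normoxia and hypoxia, and IDH3G of 39.7 and 39.0 CPM. IDH1 (chr2:208236227-208266074, minus strand) had 50.4, 52.9, 50.1 and 48.8 CPM in WT normoxia and 37.0, 47.8, 38.0 and 37.6 CPM in hypoxia. The hypoxia libraries all lay below normoxia, and replicate 2 lay much closer to it than the other three. IDH1 fell by 0.30 on the log2 scale with an SE of 0.08 (adjusted p = 0.021), and by 0.41 without hypoxia replicate 2 (adjusted p = 1.2e-04). The fall no longer passed the test when WT normoxia replicate 2 (-0.28, adjusted p = 0.062) or hypoxia replicate 1 (-0.27, 0.063), 3 (-0.28, 0.066) or 4 (-0.27, 0.070) was left out.

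IDH3A (chr15:78131498-78171949, plus strand) had 52.7, 54.5, 52.3 and 52.8 CPM in WT normoxia and 43.2, 45.4, 41.6 and 40.6 CPM in hypoxia. The groups did not overlap. IDH3A fell by 0.28 with an SE of 0.05 (adjusted p = 0.0037), and passed the test with each library left out. Its log2 fold change was -0.32 without hypoxia replicate 2 (adjusted p = 5.7e-04). ACSBG1 lies on the opposite strand and shares 38.2% of the merged exon length of IDH3A, and its own mean was at most 1.32 CPM in any group. Whether the counting used strand is not given in the sources used here, so reads of the overlap cannot be told apart.

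Among the later steps of the cycle, SDHA (chr5:218241-256700, plus strand) had 232, 250, 254 and 254 CPM in WT normoxia and 265, 290, 269 and 291 CPM in hypoxia. All hypoxia libraries were above all normoxia libraries. SDHA rose by a log2 fold change of 0.20 with an SE of 0.06 (adjusted p = 0.023), and missed the threshold without WT normoxia replicate 1 (0.16, adjusted p = 0.056) or 2 (0.21, 0.054) or hypoxia replicate 4 (0.19, 0.070), and with no filter on low counts (0.18, 0.058). The value was 0.17 without hypoxia replicate 2 (adjusted p = 0.029). Reads of the near-identical pseudogenes could be split with SDHA: SDHAP1 had means of 17.1, 21.3 and 19.5 CPM and SDHAP3 of 1.47, 2.41 and 2.19 CPM in WT normoxia, hypoxia and KO cells.

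FH (chr1:241497603-241519761, minus strand) had 137, 132, 134 and 118 CPM in WT normoxia and 108, 128, 104 and 109 CPM in hypoxia, and hypoxia replicate 2 was the library that overlapped the normoxia range. The log2 fold change of FH was -0.19 with an SE of 0.07 (adjusted p = 0.089), and -0.26 without that library (adjusted p = 0.0029). FH passed in 2 of 11 alternative settings, where the lowest adjusted p was 0.010, and DESeq2 gave -0.19 with an adjusted p of 0.049. CS (chr12:56271699-56300392, minus strand) had 364, 351, 350 and 347 CPM in WT normoxia and 320, 336, 300 and 317 CPM in hypoxia. The groups did not overlap, but the log2 fold change of -0.12 with an SE of 0.05 did not pass the test (adjusted p = 0.12). It passed without hypoxia replicate 2 (-0.15, adjusted p = 0.019) and in 1 of 11 alternative settings (adjusted p = 0.033).

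OGDH, SUCLG1 and MDH2 did not pass the test in hypoxia. OGDH (chr7:44606572-44709066, plus strand) ranged from 163 to 170 CPM in WT normoxia and from 160 to 178 CPM in hypoxia, and the 95% confidence interval of its log2 fold change ran from -0.03 to 0.19. The OGDH value of 0.082 became 0.11 without hypoxia replicate 2 (adjusted p = 0.075). SUCLG1 (chr2:84423523-84460045, minus strand) ranged from 58.0 to 64.0 CPM and from 52.6 to 69.9 CPM, with an interval from -0.22 to 0.15. Its log2 fold change of -0.033 became -0.14 without hypoxia replicate 2 (adjusted p = 0.052). MDH2 (chr7:76048051-76067508, plus strand) ranged from 243 to 260 CPM and from 242 to 283 CPM, with an interval from -0.07 to 0.20, and its log2 fold change of 0.067 became 0.010 without hypoxia replicate 2 (adjusted p = 0.90). The sign of these small differences turned in 1 or more settings: SUCLG1 became 0.017 with upper-quartile normalization, and OGDH (0.082) and MDH2 became negative with the trend of GC content removed.

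A gene was called where the adjusted p was under 0.05 and the log2 fold change was 0.5 or more in either direction. In hypoxia, 1 of 9 enzymes was called higher, IDH2, where 5.83% of 21776 genes tested were. None was called lower by edgeR, where 1.43% of genes were, and DESeq2 and limma-voom also called 0 lower, while by the raw, unadjusted p (under 0.05) 2 enzymes were higher and 4 lower, against 17.1% and 18.2% of all genes. By the adjusted p alone, 2 enzymes were higher, IDH2 and SDHA, and 2 lower, IDH1 and IDH3A, against 11.6% and 12% of all genes. The groups did not overlap for 5 of 9 enzymes, against 27.6% of all genes. The shares of all genes, here and below, were not matched for expression level, and each enzyme had 450 counts or more in every library. The part of count level in any gap between enzymes and all genes was not tested. The median log2 fold change of the 9 enzymes was -0.033 and that of all genes 0.011. CPM are shares of a library, and in these bulk libraries fewer cells with a transcript and less of it per cell cannot be told apart.

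**Figure D2:**
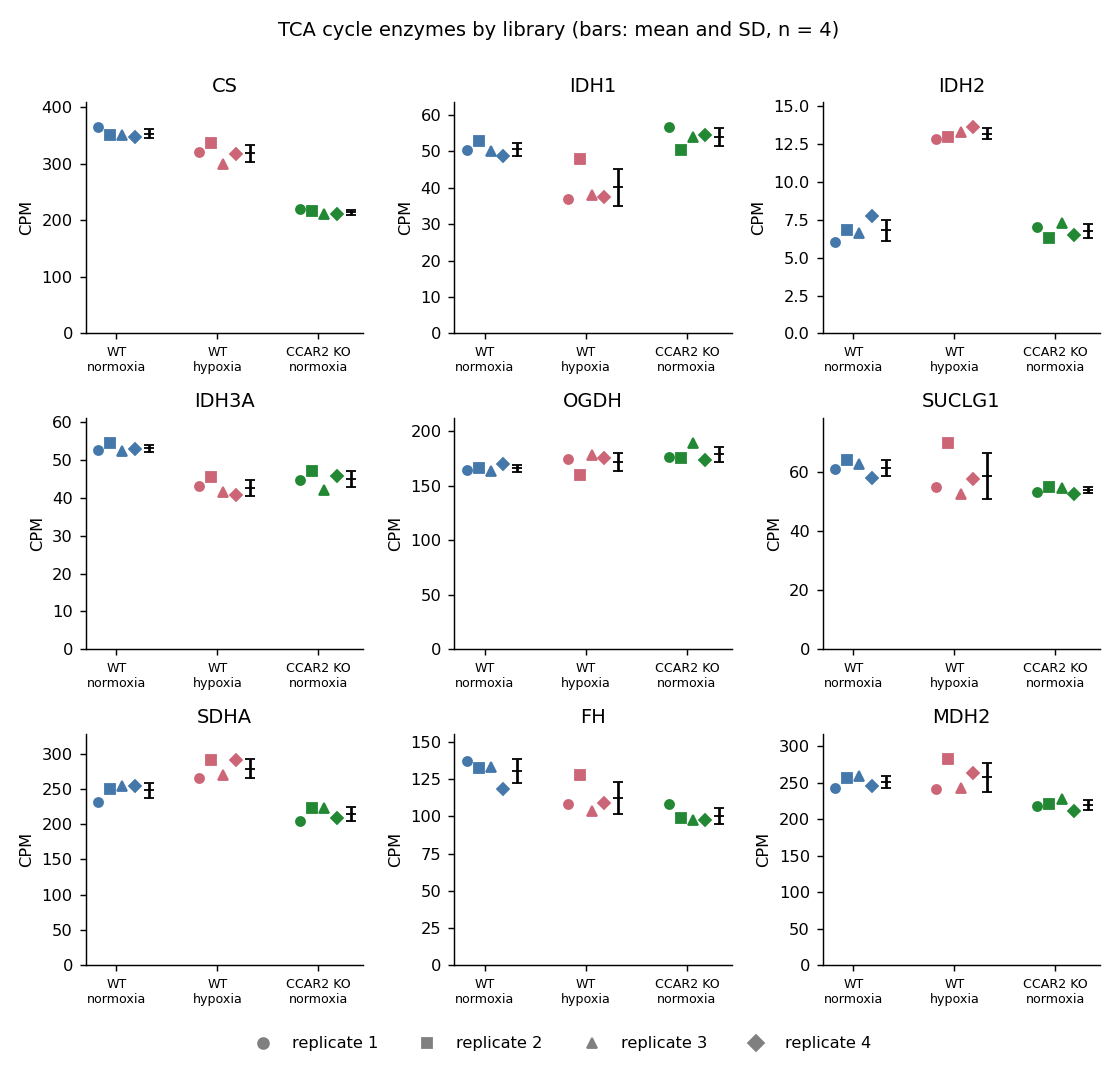
Level of each TCA cycle enzyme in CPM in each of the 12 libraries, with marker shapes for replicate numbers and the mean and SD of each group (n = 4) to its right. CS is lowest in the KO libraries (210 to 220 CPM), IDH2 is highest in the hypoxia libraries (12.8 to 13.6 CPM), and hypoxia replicate 2 lies above the other hypoxia libraries in IDH1, SUCLG1 and FH.

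The next comparison asked how the enzymes differed in CCAR2 KO cells kept in normoxia. CS had the largest difference. Its 4 KO libraries had 220, 216, 211 and 210 CPM, against 364, 351, 350 and 347 CPM in WT. The lowest WT library was far above the highest KO library. CS fell by 0.68 on the log2 scale with an SE of 0.04 (0.624-fold, adjusted p = 5.6e-08), and by 0.66 to 0.70 over 11 alternative settings and 8 libraries left out. A gene on the same strand, AC073896.1, shares 220 bases of CS exons, and had means of 3.56 to 5.43 CPM in the 3 groups.

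FH followed, with 109, 98.7, 97.3 and 97.5 CPM in KO cells against 118 to 137 CPM in WT. The groups did not overlap, and KO replicate 1 lay above the other three. FH fell by 0.34 with an SE of 0.05 (adjusted p = 2.7e-04), and passed the test with each library left out, the fall lying between 0.32 and 0.37.

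The bases before the first annotated exon of CS and FH are shown because these enzymes had the largest falls in KO cells. They lie on the minus strand of GRCh38.p14 at chr12:56300393-56300580 and chr1:241519762-241520005, and capitals mark matches on either strand to the GC box, the CCAAT box and the HIF core.
CS: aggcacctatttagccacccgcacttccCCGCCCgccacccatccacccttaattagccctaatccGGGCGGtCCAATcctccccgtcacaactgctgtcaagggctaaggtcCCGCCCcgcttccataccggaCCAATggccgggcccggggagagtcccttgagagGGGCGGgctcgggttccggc
FH: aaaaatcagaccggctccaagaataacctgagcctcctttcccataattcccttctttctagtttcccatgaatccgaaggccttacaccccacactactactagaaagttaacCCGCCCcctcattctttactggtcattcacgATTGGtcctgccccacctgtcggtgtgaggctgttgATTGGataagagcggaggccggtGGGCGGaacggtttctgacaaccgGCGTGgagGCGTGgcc
In the 250 bases before the start, CS has 5 GC boxes and 2 CCAAT boxes. Its GC box 58 bases before the start lies past the stretch shown. FH has 2 GC boxes, 2 CCAAT boxes and 2 GCGTG, all in the stretch shown. Windows with a GC box are 42.6% and windows with a CCAAT box 32.0% of all windows of that length. MDH2 has 2 ETS cores, found in 8.52% of windows.

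IDH3A, SDHA, MDH2 and SUCLG1 fell less in KO cells. IDH3A had 44.8, 47.1, 42.2 and 45.7 CPM in KO cells, all below WT, and fell by 0.20 with an SE of 0.05 (adjusted p = 0.0065). The other subunits of the NAD-dependent enzyme went different ways. IDH3B had means of 117 and 99.3 CPM in WT normoxia and KO cells, and IDH3G of 39.7 and 44.0 CPM. MDH2 had 218, 222, 228 and 211 CPM, all below the WT range of 243 to 260 CPM, and fell by 0.15 with an SE of 0.04 (adjusted p = 0.012), with an adjusted p just over 0.05 in the joint fit of the 12 libraries (-0.15, 0.0500451). SDHA had 205, 223, 223 and 208 CPM, all below the WT range of 232 to 254 CPM, and fell by 0.17 with an SE of 0.05 (adjusted p = 0.024). This small difference missed the threshold without WT normoxia replicate 3 (-0.16, adjusted p = 0.058) or 4 (-0.15, 0.062) or KO replicate 1 (-0.14, 0.063) or 4 (-0.15, 0.080), and with upper-quartile normalization (-0.15, 0.053). SUCLG1 had 53.2, 55.1, 54.8 and 52.7 CPM, all below the WT range of 58.0 to 64.0 CPM. Its fall of 0.15 with an SE of 0.04 (adjusted p = 0.018) missed the threshold without KO replicate 4 (-0.14, adjusted p = 0.060), in the joint fit of the 12 libraries (-0.15, 0.17) and with the GC trend removed (-0.12, 0.065).

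OGDH and IDH1 rose slightly in KO cells. OGDH had 176, 175, 189 and 173 CPM, all above WT, with a log2 fold change of 0.15 and an SE of 0.04 (adjusted p = 0.014), and missed the threshold without WT normoxia replicate 3 (0.13, adjusted p = 0.068) and with no filter on low counts (0.12, 0.075). IDH1 had 56.7, 50.5, 54.1 and 54.5 CPM, and KO replicate 2 lay within the WT range of 48.8 to 52.9 CPM. Its log2 fold change was 0.13 with an SE of 0.04 (adjusted p = 0.036), and it passed the test in only 2 of the 8 fits that left out a library. These 2 were the fits without WT normoxia replicate 2 and without KO replicate 2, and in the other 6 the adjusted p lay between 0.053 and 0.12. It also missed the threshold with no filter on low counts (0.11, adjusted p = 0.15) and in the joint fit of the 12 libraries (0.13, 0.22). IDH2 had 7.04, 6.32, 7.26 and 6.47 CPM, inside the WT range of 6.06 to 7.72 CPM, and the 95% confidence interval of its log2 fold change ran from -0.17 to 0.24.

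By the call rule, CS was the 1 enzyme of 9 called lower in KO cells, where 2.94% of 21410 genes were. None was called higher by edgeR, DESeq2 or limma-voom, where 6.73% of genes were by edgeR, and by the raw p (under 0.05) 2 enzymes were higher and 6 lower, against 19.6% and 19.8% of all genes. By the adjusted p alone, 6 enzymes were lower (CS, FH, IDH3A, SDHA, MDH2 and SUCLG1) and 2 higher (OGDH and IDH1), against 15.4% and 14.9% of all genes. The groups did not overlap for 7 of 9 enzymes, against 31.7% of all genes, a share not matched for expression level. The median log2 fold change of the enzymes was -0.15 and that of all genes 0.0090. Exact permutation tests on log2 CPM (two-sided, 4 against 4) gave the smallest p they can give, 0.0286, for the 5 enzymes that did not overlap in hypoxia and the 7 in KO cells. This p is unadjusted and follows from the lack of overlap itself, so it adds nothing to those counts.

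**Figure D3:**
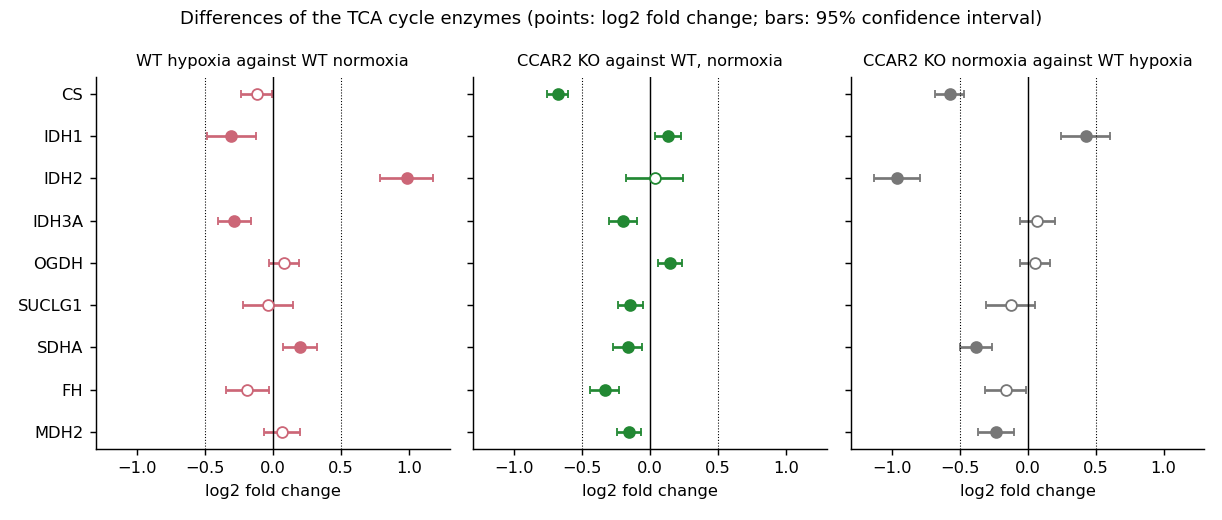
Log2 fold changes of the 9 enzymes with 95% confidence intervals in 3 comparisons, from fits on the 8 libraries of each pair of groups. Filled points have an adjusted p under 0.05 and dotted lines mark 0.5 either way. IDH2 lies past the line in hypoxia (0.98), CS in KO cells (-0.68), and both in the direct comparison of KO cells with hypoxic WT cells (-0.96 and -0.57).

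Both comparisons share the WT normoxia libraries, so KO cells were also set directly against hypoxic WT cells, a comparison in which genotype and oxygen differ together. IDH2 was lower in KO cells by 0.96 on the log2 scale (log2 fold change -0.96, SE 0.08, adjusted p = 3.6e-06), and CS by 0.57 (log2 fold change -0.57, SE 0.05, adjusted p = 4.8e-06). SDHA was lower (-0.38, SE 0.05, adjusted p = 2.5e-04), and so was MDH2 (-0.23, SE 0.06, adjusted p = 0.0095). IDH1 was higher in KO cells (0.43, SE 0.08, adjusted p = 0.0019), and passed the fold limit without hypoxia replicate 2 (0.52). The intervals of the remaining 4 were -0.31 to -0.01 for FH, -0.30 to 0.05 for SUCLG1, -0.06 to 0.20 for IDH3A and -0.06 to 0.16 for OGDH, with adjusted p of 0.095, 0.27, 0.39 and 0.46. With the GC trend removed FH (-0.21, adjusted p = 0.017), SUCLG1 (-0.21, 0.047) and OGDH (0.13, 0.022) passed the test, and without hypoxia replicate 2 the values were -0.089 for FH, -0.030 for SUCLG1 and 0.021 for OGDH. By the call rule 2 of 9 enzymes were lower, CS and IDH2, where 7.88% of 21158 genes were. None was called higher by edgeR, DESeq2 or limma-voom, where 7.08% of genes were by edgeR, with 1 enzyme higher and 5 lower by the raw p (under 0.05), against 20.9% and 22.1% of genes. By the adjusted p alone 4 enzymes were lower and 1 higher, against 17.8% and 17.1% of genes, and 5 of 9 did not overlap, against 35.8%. The median of the enzymes was -0.16 and that of all genes -0.017.

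The 3 isocitrate dehydrogenase genes among the 9 enzymes were also read as shares of their summed CPM per kilobase. IDH3B and IDH3G were not counted in. IDH2 made up 11.6% ± 1.15 (SD, n = 4) in WT normoxia, 24.2% ± 1.86 in hypoxia and 11.8% ± 0.716 in KO cells. The IDH1 share was 51.3% ± 1.07 in WT normoxia, 43.6% ± 2.53 in hypoxia and 55.9% ± 1.40 in KO cells. The IDH3A share was 37.2% ± 0.261, 32.2% ± 1.15 and 32.3% ± 1.88. With the longest transcript as length, the IDH2 share was 6.997%, 15.5% and 7.09% in the same order, so its size depends on the length used and its rise in hypoxia does not. These shares are of transcripts and not of enzyme activity.

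Over the 12 libraries, IDH2 had the widest span of group means (0.96 in log2 CPM), followed by CS (0.72), IDH1 (0.43), SDHA (0.38) and FH (0.37), while OGDH had the narrowest (0.11). Among the enzymes, the most alike pair was SDHA and MDH2 (Pearson r = 0.89 in log2 CPM over 12 libraries), then CS and FH (0.84). The least alike were OGDH and FH (-0.86) and IDH1 and IDH2 (-0.85). These describe 12 libraries in 3 separate groups and carry no test. Of 14705 genes with a mean of at least 100 counts, those whose log2 CPM was most like IDH2 were SPAG4 (r = 0.990), GALNT18 (0.987), ANKZF1 (0.986), ALDOC (0.986) and PFKL (0.985). ALDOC and PFKL are glycolytic enzymes. ALDOC had means of 8.42, 47.4 and 9.62 CPM, and PFKL of 154, 278 and 160 CPM, in WT normoxia, hypoxia and KO cells. In the same order, SPAG4 had 4.84, 24.6 and 5.13 CPM, GALNT18 20.4, 32.5 and 20.5 CPM, and ANKZF1 31.7, 74.4 and 34.0 CPM. These genes were picked by their likeness to IDH2 over the same libraries, so their high level in hypoxia follows from the choice.

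The rest of the pathway was read from lists of neighbouring genes, whose counts stand against these shares of all genes. In hypoxia 5.83% of genes were called higher and 1.43% lower, 11.6% and 12% by the adjusted p alone, and 17.1% and 18.2% by the raw p. In KO cells these shares were 6.73% and 2.94%, 14.9% and 15.4%, and 19.6% and 19.8%. The median of all genes was 0.011 in hypoxia and 0.0090 in KO cells.

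In the entry of pyruvate, PDK1 had 14.9, 15.0, 13.5 and 14.2 CPM in WT normoxia and 37.6, 39.4, 38.0 and 40.0 CPM in hypoxia. All 4 hypoxia libraries were far above normoxia, with a log2 fold change of 1.46 (SE 0.05, adjusted p = 9.1e-08). PDK3, another kinase of pyruvate dehydrogenase, rose by 0.72 (adjusted p = 1.3e-04), and PDP2, a phosphatase that switches the enzyme back on, fell by 0.64 (adjusted p = 2.1e-04). The kinases PDK2 and PDK4 were not called in hypoxia. PDK2 had means of 30.1 and 27.8 CPM in WT normoxia and hypoxia, and PDK4 of 3.67 and 3.91 CPM. MPC1, a subunit of the mitochondrial pyruvate carrier, fell by 0.39 (adjusted p = 0.012). Of the 13 genes of this list, 2 were called higher and 1 lower in hypoxia, with 3 higher and 5 lower by the adjusted p alone and a median of -0.11. In KO cells PDK1 had a mean of 15.9 CPM and did not pass the test (0.18, adjusted p = 0.069). PDK4 had 3.805, 3.73, 3.40 and 3.74 CPM in WT normoxia and 6.46, 5.37, 5.78 and 7.10 CPM in KO cells, and rose by a log2 fold change of 0.79 (adjusted p = 1.0e-04). It was the 1 gene of the 13 called in KO cells. None was called lower by edgeR, DESeq2 or limma-voom, and 4 were lower by the raw p (under 0.05). By the adjusted p alone 2 were higher and 4 lower, MPC1 with the lowest value (-0.34, adjusted p = 0.018).

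Among 17 other subunits and isoenzymes of the cycle, SDHAF4, an assembly factor of complex II, was the 1 gene called in hypoxia. SDHAF4 had 2.56, 2.89, 2.92 and 2.33 CPM in WT normoxia and 4.38, 5.03, 3.46 and 4.50 CPM in hypoxia, with a log2 fold change of 0.73 (SE 0.14, adjusted p = 0.0033). SDHAF3, another assembly factor, had the lowest value (-0.26, adjusted p = 0.13). None of the list was called in KO cells by edgeR, DESeq2 or limma-voom. By the adjusted p alone 2 rose and 6 fell there, and by the raw p (under 0.05) these were 2 and 7. ACO1, the cytosolic aconitase that also binds iron-responsive RNA, had 223, 219, 210 and 229 CPM in WT normoxia and 302, 283, 301 and 299 CPM in KO cells. All KO libraries were above all WT libraries, and the log2 fold change of 0.46 (adjusted p = 3.8e-06) lay just under the fold limit. SDHD, a membrane anchor of complex II, fell by 0.38 in KO cells (adjusted p = 3.1e-05) and by 0.20 in hypoxia (adjusted p = 0.037). The list's median was -0.047 in hypoxia and -0.095 in KO cells.

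Of 12 enzymes that feed the cycle or draw from it, D2HGDH was the 1 gene called in hypoxia. It oxidizes D-2-hydroxyglutarate to 2-oxoglutarate, and had 10.8, 10.1, 11.2 and 10.5 CPM in WT normoxia and 18.2, 18.8, 20.4 and 20.05 CPM in hypoxia, a log2 fold change of 0.89 (SE 0.07, adjusted p = 1.0e-05). ME1, the cytosolic malic enzyme, fell by 0.49 (adjusted p = 5.9e-04), just under the fold limit, and 1 gene of the list was called lower by limma-voom, without a filter on low counts, and without WT normoxia replicate 3, WT normoxia replicate 4 or hypoxia replicate 2. Of the 12, 6 were lower by the raw p (under 0.05). In KO cells edgeR, DESeq2 and limma-voom called none, and 3 were higher and 2 lower by the raw p (under 0.05). The lowest value there was that of GLS2, a glutaminase, at -0.66 (adjusted p = 0.25) on means of 0.258 and 0.159 CPM. The highest was that of ME3, a mitochondrial malic enzyme, at 0.14 (adjusted p = 0.016). The list's median was -0.11 in hypoxia and -0.058 in KO cells.

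Among 7 mitochondrial carriers of cycle metabolites, SLC25A21, which carries oxodicarboxylates, fell by 0.65 in hypoxia (adjusted p = 0.0084) from a mean of 3.13 to 1.96 CPM, and was the 1 carrier called. The citrate carrier SLC25A1 rose by 0.25 (adjusted p = 0.012). In KO cells the dicarboxylate carrier SLC25A10 fell by 0.30 (adjusted p = 0.0016) and the aspartate-glutamate carrier SLC25A13 rose by 0.26 (adjusted p = 0.0095). No carrier was called in KO cells by the 3 tools, and 2 were higher and 2 lower by the raw p (under 0.05). The median of the carriers was -0.091 in hypoxia and -0.079 in KO cells.

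Of 9 regulators of mitochondrial biogenesis, none was called in hypoxia or in KO cells by the 3 tools. By the raw p (under 0.05), 2 were higher and 4 lower in hypoxia, and 1 was higher and 4 lower in KO cells. TFAM, which packages and transcribes mitochondrial DNA, fell by 0.32 in hypoxia (adjusted p = 0.0047) and by 0.34 in KO cells (adjusted p = 4.0e-04), and had the lowest value of the list in both. ESRRA, a nuclear receptor that drives mitochondrial genes, had the highest value in both, at 0.19 and 0.14, and did not pass the test (adjusted p = 0.059 in each). The median of these regulators was -0.16 in hypoxia and 0.012 in KO cells.

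The 13 mitochondrially encoded messenger RNAs, all subunits of the respiratory chain and ATP synthase, had a median of -0.13 in hypoxia and 0.012 in KO cells. None was called in either comparison by the 3 tools, with 0 higher and 4 lower by the raw p (under 0.05) in hypoxia and 2 and 2 in KO cells. MT-ND2 fell by 0.44 (adjusted p = 0.0070) and MT-ND1 by 0.41 (adjusted p = 0.0056) in hypoxia, and 2 of the 13 were called lower without hypoxia replicate 2 and 4 without the libraries of small sum. In KO cells MT-ND2 fell by 0.16 (adjusted p = 0.029), and MT-ND4L had the highest value at 0.14 (adjusted p = 0.13).

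**Figure D4:**
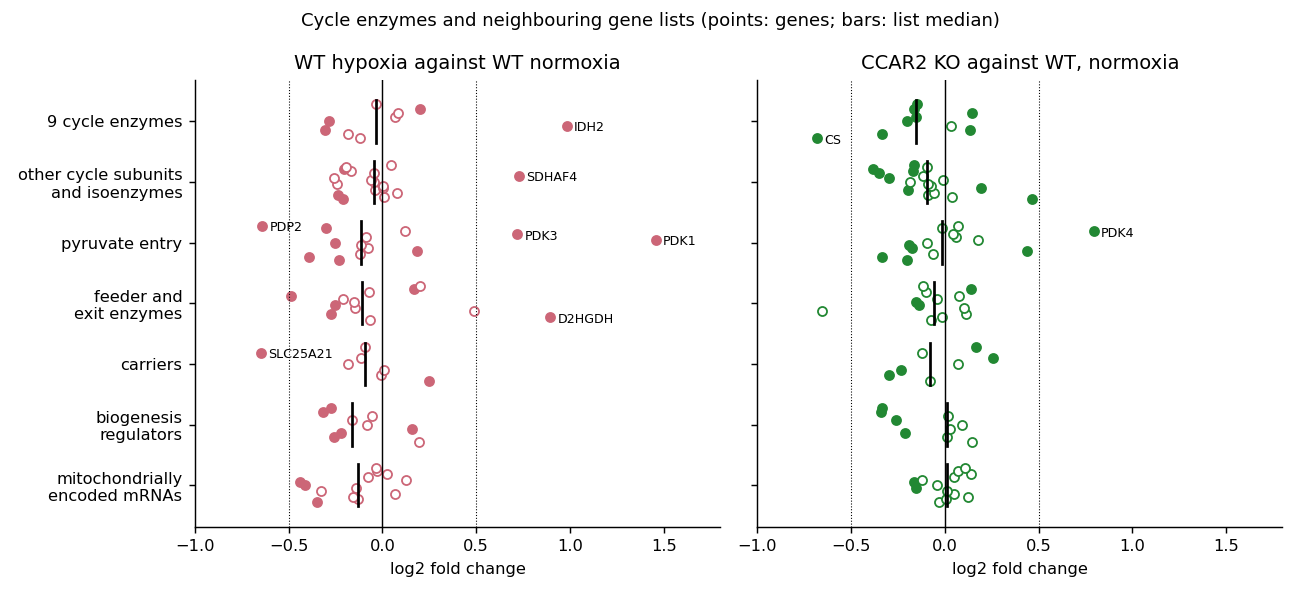
Log2 fold changes of the 9 TCA cycle enzymes and 6 neighbouring lists in hypoxia (left) and in CCAR2 KO cells (right), 1 point per gene, filled at an adjusted p under 0.05, with called genes named, a bar at each list's median and dotted lines at 0.5 either way. PDK1 lies farthest right in hypoxia (1.46), and CS farthest left in KO cells (-0.68).

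In the direct comparison of KO cells with hypoxic WT cells, 10 genes of the lists were called, where 7.08% of all genes were called higher and 7.88% lower. PDK1 (-1.29), PDK3 (-0.69), SDHAF4 (-0.86) and D2HGDH (-0.92) were lower in KO cells, and so was GLS2 (-1.16, adjusted p = 0.034) on means of 0.356 and 0.159 CPM. PDP2 (0.70), PDK4 (0.66), ACO1 (0.66), ME1 (0.56) and SLC25A21 (0.52) were higher. The call of SLC25A21 was lost, so that no carrier was called higher, without hypoxia replicate 4, without KO replicate 2, with upper-quartile normalization and with the GC trend removed, which also left no feeding enzyme called higher. Without hypoxia replicate 1, 2 or 4 or KO replicate 1, 2 or 3, the feeding enzymes had 1 gene called lower and not 2. Of the regulators and the mitochondrially encoded messenger RNAs none was called by the 3 tools, and 1 and 5 were higher and 1 and 0 lower by the raw p (under 0.05), by which 20.9% of all genes were higher and 22.1% lower.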

How the data were processed

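Poly-A RNA of 12 libraries was sequenced. Per the labels and methods, the authors aligned cleaned reads and summarised them as estimated counts per gene, whole numbers deposited without scaling to library size. The methods name Hisat2 and StringTie, the submitters' processing notes list HISAT2, SAMtools and featureCounts, and the build is not given in the sources used here. The methods give RNA from biological triplicates, elsewhere 2 biological replicates a group, and another extraction reagent and library kit than the labels do; 4 libraries per group were used, grouped by their labels. A sum of such estimates may differ from the number of reads, and intervals cover the spread between libraries.

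Each pair of groups was fitted with edgeR 4.0.16 (R 4.3.3; TMM, filterByExpr, glmQLFit, glmQLFTest) with Benjamini-Hochberg adjustment over all genes tested. SE is the absolute log2 fold change over the root of F. CPM are scaled to TMM library sizes over all 12 libraries and all genes, before the filter on low counts, so they differ from the pairwise fold changes. For IDH1 in KO cells the difference in mean log2 CPM was 0.092, against 0.13 in the fit. Log2 CPM used a prior count of 2. Positions and lengths are from GENCODE 29 (GRCh38), which held 58396 of 60664 identifiers. The code was tested on simulated data.

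The 9 enzymes and the lists were chosen with earlier results of these data known. Named from each list were genes called in any comparison and the highest and lowest per comparison, and, for the enzyme of widest span, the 5 most correlated genes. Alternatives were DESeq2 1.42.0, limma-voom (limma 3.58.1), normalization by upper quartile or RLE, every gene kept, a minimum of 10 counts per library, counts divided by 4, a joint fit of the 12 libraries, a replicate block, other thresholds and each library left out. Leaving out the libraries of small sum and removing the GC trend were chosen after seeing the data.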

Additional observations from a re-analysis of the deposited data

Results flagged for a closer look

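For 36 genes (the 9 enzymes, the listed genes that are named, CCAR2 and CA9), each group of 4 libraries was searched for a library far from the others by Dixon's ratio of the gap to the range. Chance flags about 1 in 20 groups, or 5.4 of 108, and 9 were flagged, 2 of them among the enzymes.

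IDH1 in hypoxia replicate 2 had 47.8 CPM against 37.0 to 38.0 CPM in the other three (ratio 0.903), and FH in KO replicate 1 had 109 CPM against 97.3 to 98.7 CPM (ratio 0.878). Among the neighbouring genes, ME1 in hypoxia replicate 2 had 18.5 CPM against 16.0 to 16.3 CPM (ratio 0.880), and PDK4 in hypoxia replicate 3 had 4.66 CPM against 3.53 to 3.72 CPM (ratio 0.830). In KO cells, ACO1 in replicate 2 had 283 CPM against 299 to 302 CPM (ratio 0.851), and SLC25A13 in replicate 1 had 40.2 CPM against 34.4 to 35.1 CPM (ratio 0.876). In WT normoxia, ESRRA in replicate 1 had 56.1 CPM against 62.6 to 63.9 CPM (ratio 0.834), PDK3 in replicate 3 had 8.85 CPM against 10.04 to 10.2 CPM (ratio 0.848), and CCAR2 in replicate 4 had 152 CPM against 148 CPM in the others (ratio 0.858).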

How the results depend on the processing

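The calls of IDH2 in hypoxia and CS in KO cells held in every alternative fit and with each library left out, and were lost only with a fold limit of 1 on the log2 scale. By the adjusted p alone, all genes called higher and lower were 2518 and 2609 in hypoxia, 3199 and 3307 in KO cells, and 3628 and 3762 in KO cells against hypoxia, and the enzymes were 2 and 2, 2 and 6, and 1 and 4. With that fold limit, all genes were 440 and 47, 604 and 171, and 582 and 637, and the enzymes were 0 higher in hypoxia, 0 lower in KO cells and 0 lower in KO cells against hypoxia. Upper-quartile normalization left 192 genes called lower in hypoxia (312 before) and moved the median of all genes by 0.051, the cause of which was not tested. IDH1 became the 1 enzyme called higher in KO cells against hypoxia without the libraries of small sum, and the number ranged from 0 to 1 with single libraries left out.

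The sign turned for SUCLG1 in hypoxia with upper-quartile normalization (0.017), with the GC trend removed (0.091) and without hypoxia replicate 3 (range -0.14 to 0.020 over libraries left out). It also turned, with the GC trend removed, for OGDH (-0.040) and MDH2 (-0.00087) in hypoxia and for IDH2 in KO cells (-0.012), where single libraries left out gave -0.024 to 0.11. The cause was not tested.

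The labels do not say that the replicate numbers pair libraries. The deviations of same-numbered libraries correlated at -0.025 to 0.065 over 12 pairs, and those of differently numbered libraries at -0.077 to 0.092. A shared culture or batch was not tested. With a replicate block, genes called higher and lower were 1183 and 324 in hypoxia and 1393 and 603 in KO cells, and IDH2 and CS were still called (0.99 and -0.68). No pair of libraries was identical. GLS2, a low gene, had SDs of 0.0898, 0.0551 and 0.0619 CPM in WT normoxia, hypoxia and KO cells. The effect of the 3 small sums on the precision of such genes was not tested.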
